A study of Mus musculus with 4 samples.

Results

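The genes described here encode the sensors, transcription factors and regulators of the unfolded protein response and the integrated stress response. They were chosen by symbol, as 10 named genes, and 9 of them are among the 13658 genes of the table: the sensor genes Ern1, Eif2ak3 and Atf6, the transcription factor genes Xbp1, Atf4 and Ddit3, and the regulator genes Nupr1, Trib3 and Ppp1r15a. Atf3 was not analysed here. The data come from wild-type mouse morulae, the compacted embryos before the blastocyst. At the 1-cell stage each had received siRNA by injection, 4 to 5 pL at 100 µM, either a pool against Nr1h2 (siNr1h2) or a non-targeting one (siNT), before culture in M16 medium. There were 2 samples per group, 4 in all, of polyadenylated RNA. The labels do not say whether the replicates were separate injections or how many embryos each held. The p-values therefore rest only on the spread between these samples, which may be technical. The authors' test, by DESeq2, estimates that spread partly from other genes of like mean. No values per sample are in the table, so each gene is given by its mean over the 4 samples, its fold change and the error of that change, and the depth of each sample is unknown.

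Nr1h2 encodes LXRβ, a nuclear receptor for oxysterols that controls sterol and fatty acid genes. The unfolded protein response answers misfolded protein in the endoplasmic reticulum (ER) through separate membrane sensors. IRE1α (from Ern1) is an endoribonuclease that cuts a short intron out of Xbp1 mRNA, so that the ligated message encodes an active transcription factor. PERK (from Eif2ak3) is a kinase that phosphorylates eIF2α, which lowers general translation and raises that of ATF4. ATF6 is cut in the Golgi and its freed part enters the nucleus to switch on chaperone genes. The integrated stress response is the wider eIF2α pathway, which amino acid shortage and other stresses also start.

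Because IRE1α acts on Xbp1 at the level of the message, the stretch that it removes is shown for Xbp1, the transcription factor gene that was higher in siNr1h2 morulae. It lies within the coding sequence, in exon 4 of 5 of a protein-coding GENCODE transcript of the gene (GRCm38 chr11:5524264-5524319, + strand). It was located as the 1 pair of cut sites that lie 26 bases apart in all 3 protein-coding transcripts. Each site has the form C, any base, G, C, any base, G. Capitals mark the 26 bases between the cuts. Dividing 26 by 3 leaves 2, so their removal changes the reading frame.
Xbp1 mRNA, cut region: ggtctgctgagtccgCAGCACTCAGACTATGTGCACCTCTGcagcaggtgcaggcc
The table counts both forms of the message as 1 gene, so the share of the cut form was not measured.

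The upstream sequences of the genes called higher and lower are shown next, because the transcription factors of this group act at short elements near gene starts. RefSeq promoter windows (GRCm38.p6) were matched by symbol for 8 of the 9 genes in the table, and the 250 bases before each start were searched on both strands for 5 motifs. Capitals mark a match. A stretch of Ppp1r15a, which was not called, is shown as well because its window held a match.
Xbp1, chr11:5520391-5520640, + strand: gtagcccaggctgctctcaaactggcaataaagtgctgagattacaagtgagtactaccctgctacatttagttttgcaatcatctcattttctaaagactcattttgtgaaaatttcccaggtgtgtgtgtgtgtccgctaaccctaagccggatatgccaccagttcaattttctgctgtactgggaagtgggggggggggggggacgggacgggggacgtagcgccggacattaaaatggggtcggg
Nupr1, chr7:126625471-126625720, - strand: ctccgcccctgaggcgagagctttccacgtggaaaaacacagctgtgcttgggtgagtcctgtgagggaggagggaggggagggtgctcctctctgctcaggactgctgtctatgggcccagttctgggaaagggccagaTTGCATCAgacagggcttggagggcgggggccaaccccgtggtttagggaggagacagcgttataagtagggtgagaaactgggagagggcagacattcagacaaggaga
Ppp1r15a, chr7:45526269-45526306, - strand, the last bases before the start: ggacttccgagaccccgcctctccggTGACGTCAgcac
The Nupr1 window held the composite element to which ATF4 and C/EBP factors bind (searched as TGATGCAA, read on the other strand as TTGCATCA), from 110 to 103 bases before the start. This element was present in 0.791% of 32851 promoter windows of the same length. The Ppp1r15a window held a cAMP response element (TGACGTCA), the site of CREB and ATF factors, from 12 to 5 bases before the start, an element found in 1.55% of windows. None of the 8 windows held the unfolded protein response element TGACGTGG (0.563% of all windows), the ER stress response element, searched as CCAAT and CCACG with 9 bases between them (0.113%), or a direct repeat of AGGTCA with a spacer of 4 bases, the element type of LXR (0.0152%). Only exact letters were counted, so variants of these elements were left out. The Ddit3 window, for example, holds cgtgccgctttctgattgg, a near match to the ER stress response element on the other strand. A match is a stretch of letters, and none of these windows was measured for binding.

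Of the 9 genes, Xbp1 was higher and Nupr1 lower in siNr1h2 morulae, and the other 7 did not pass the test. Genes are called here at an adjusted p under 0.05 in the authors' deposited table (DESeq2's Wald test with Benjamini-Hochberg adjustment). Over all 12069 genes tested, 1.98% were called, 0.456% higher and 1.52% lower, so 1 called gene in each direction among 9 is a small count to set against that background. The median log2 fold change of the 9 genes was -0.01, beside 0.00 over all tested genes, with 4 above 0 and 5 below. By role, 1 of 3 transcription factor genes, 0 of 3 sensor genes and 1 of 3 regulator genes were called, and 0 of the 3 sensor genes had an unadjusted p under 0.05. Of all 9 genes 3 had one, Trib3 besides the called pair, where 13.3% of all genes tested did. The targeted transcript Nr1h2 was 5.03 times lower (95% interval 3.89 to 6.50) in the authors' deposited table.

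**Figure D1:**
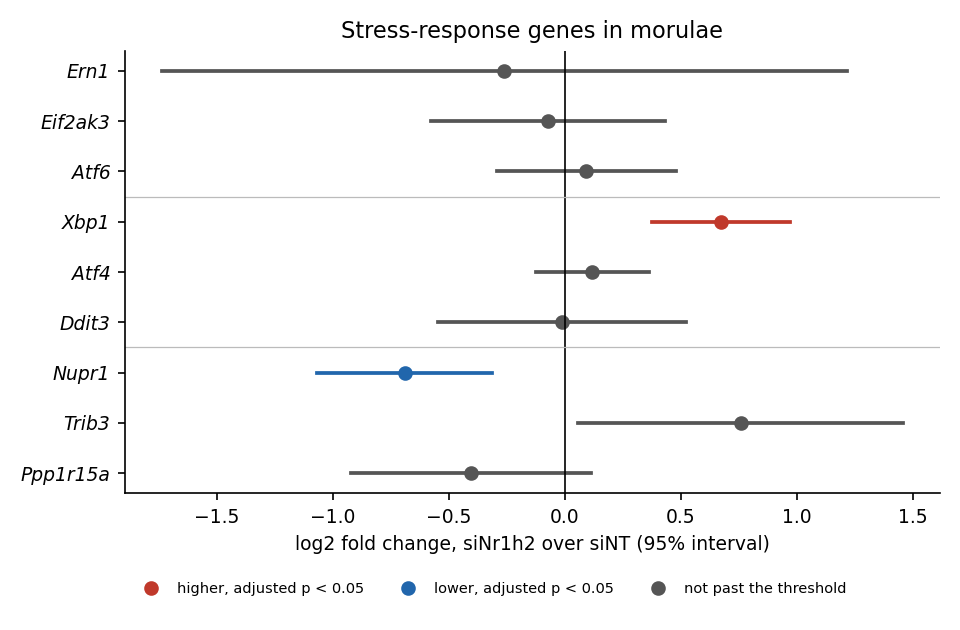
Log2 fold change, siNr1h2 over siNT, of the 9 stress-response genes in the authors' deposited table, with points for the value and lines for the 95% interval (1.96 standard errors), grouped from top to bottom as sensors, transcription factors and regulators. Only Xbp1 (0.67) and Nupr1 (-0.69) passed an adjusted p of 0.05, and the interval of Trib3 also lies above 0 although it did not pass.

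The sensor genes showed no change past the test. For each gene the mean of each group was derived from its mean over the 4 samples and its fold change. Atf6 had a mean normalized count of 286, with derived group means of 277 in siNT and 295 in siNr1h2. Its fold change was 1.07 (95% interval 0.815 to 1.39; adjusted p = 0.900 in the authors' deposited table). Eif2ak3, the PERK gene, had a mean of 144 and derived group means of 148 in siNT and 141 in siNr1h2. The interval of its fold change, 0.671 to 1.35, lies around the value of 0.951, with an adjusted p of 0.944 (authors' deposited table). For both sensors these intervals leave out a doubling and a halving.

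Ern1, the IRE1α gene, was the least abundant of the group. Its mean normalized count was 12.4, from derived group means of 13.5 in siNT and 11.2 in siNr1h2. The fold change of 0.834 had an interval from 0.300 to 2.32 (adjusted p = 0.930 in the authors' deposited table). At this count only a change of at least 5.59 times would have been called, so smaller changes of Ern1 were not detectable at this depth. Xbp1, the message on which IRE1α acts, was called higher, and any link to the level of Ern1 was not tested.

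Among the transcription factor genes, Xbp1 rose. Its mean normalized count was 633, and the derived group means were 488 in siNT and 778 in siNr1h2. The message was 1.59 times higher (95% interval 1.30 to 1.96), its log2 fold change being 0.67 ± 0.15 (SE) with an adjusted p of 0.00195 (authors' deposited table). By p-value it stood at rank 58 of the 12069 genes tested. The interval lies wholly above 0 on the log2 scale, and the change exceeds the 1.41 times that would have been called at its standard error.

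Atf4 and Ddit3, the transcription factor genes below PERK, did not pass the test. Atf4, whose product switches on amino acid synthesis and transport genes, was the most abundant member with a mean normalized count of 1786. Its derived group means were 1714 in siNT and 1859 in siNr1h2, a fold change of 1.08 (95% interval 0.916 to 1.28; adjusted p = 0.754 in the authors' deposited table). ATF4 is regulated largely by translation, which this assay does not measure. Ddit3 encodes CHOP, a pro-apoptotic factor induced through ATF4. Its mean was 165, its derived group means 166 in siNT and 164 in siNr1h2, and its fold change 0.991 (0.684 to 1.43; adjusted p = 0.991 in the authors' deposited table). For Atf4 a change of 1.33 times would have been called and for Ddit3 one of 1.86 times, so the bound on Atf4 is the tighter one.

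Nupr1, a small chromatin-associated stress protein gene that ATF4 is known to induce, was the regulator that fell. It had a mean normalized count of 288, with derived group means of 355 in siNT and 220 in siNr1h2. The message was 1.61 times lower (95% interval 1.24 to 2.10), its log2 fold change being -0.69 ± 0.19 (SE) with an adjusted p of 0.0256 (authors' deposited table). Its rank by p-value was 158 of 12069. The smallest change that would have been called at its standard error was 1.55 times, so Nupr1 passed by a narrow margin, and at a threshold of 0.01 it was not called.

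Trib3 and Ppp1r15a, both known targets of the ATF4 and CHOP branch, lay on opposite sides of 0. Trib3 encodes a pseudokinase that inhibits Akt and ATF4. From a mean of 61.5, the derived group means were 45.7 in siNT and 77.3 in siNr1h2, and the fold change of 1.69 was the largest increase of the 9 (95% interval 1.04 to 2.74). Its unadjusted p was 0.0338 and its adjusted p 0.324 in the authors' deposited table, so it was not called, and a change of 2.26 times would have been needed. Ppp1r15a encodes GADD34, a regulatory subunit of the phosphatase that removes the phosphate from eIF2α. From a mean of 131 its derived group means were 149 in siNT and 112 in siNr1h2, and its fold change was 0.755 (0.528 to 1.08; adjusted p = 0.532 in the authors' deposited table). Values of the 3 regulator genes thus ran from -0.69 to 0.76 on the log2 fold change scale.

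**Figure D2:**
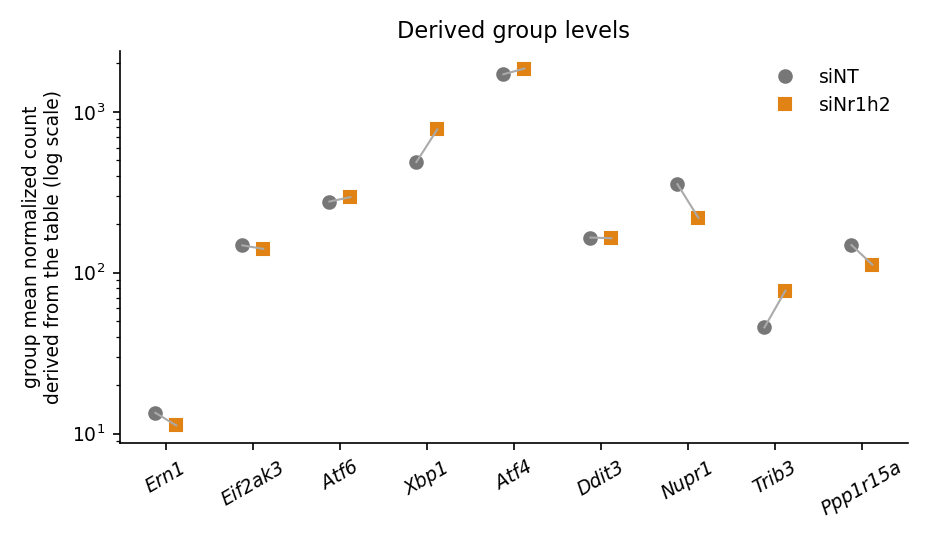
Group means of the normalized count on a log scale, derived for each gene from the mean over the 4 samples and the fold change in the authors' deposited table, with circles for siNT and squares for siNr1h2; no error bars are drawn because the table holds no values per sample. Xbp1 moves from 488 to 778 and Nupr1 from 355 to 220, while Ddit3 stands at 166 and 164.

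The order of the levels was set per length, as mean normalized counts per kilobase of the longest GENCODE transcript, protein-coding or not. It therefore depends on the length chosen for each gene. Atf4 was highest at 885 counts per kilobase (95% interval 813 to 963), followed by Xbp1 at 297 (268 to 330), Ddit3 at 170 (141 to 205) and Nupr1 at 117 (103 to 134). The intervals of neighbours in this order did not overlap. Ppp1r15a at 46.5 counts per kilobase (38.8 to 55.6), Atf6 at 39.5 (34.6 to 45.1), Eif2ak3 at 32.0 (26.9 to 38.1) and Trib3 at 30.4 (23.8 to 38.7) formed a run in which each interval overlapped the next. Ern1 was lowest at 1.78 (1.07 to 2.97) and its interval lay below that of Trib3. The sensor genes thus took places 6, 7 and 9 of 9 per length, below every one of the transcription factor genes. These intervals take the standard error of a gene's mean, on the log2 scale, from that of its fold change as if all samples varied alike, cover replicate spread only and leave out any doubt about which transcript the embryo uses.

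The standard error of the log2 fold change ran from 0.12 for Atf4 to 0.75 for Ern1, and for each of the 9 genes it lay between 93.8% and 113% of the median of tested genes with a mean within 1.2 times of its own. Ddit3 had the highest ratio and Atf4 the lowest. DESeq2 estimates spread partly from genes of like mean, so such closeness is in part set by the method. Atf6 and Nupr1 had like means (286 and 288) and standard errors (0.20 and 0.19). Their log2 fold changes were 0.09 and -0.69, a difference that was not itself tested. The libraries do not mark strand, so reads from overlapping genes on the opposite strand cannot be told apart. In the GENCODE annotation the exons of Ddit3 overlap those of Mars, which had a mean normalized count of 925 and a log2 fold change of 0.04 ± 0.14 (SE) in the authors' deposited table. Exons of Ppp1r15a overlap those of Tulp2, at a mean of 4.04 without an adjusted p, and those of Eif2ak3 overlap Gm43292 on the opposite strand. Ddit3 also overlaps the opposite-strand Gm4189. Neither of these predicted genes was analysed here. The value of Ddit3 is uncertain for this reason, since its neighbour is the more abundant message.

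**Figure D3:**
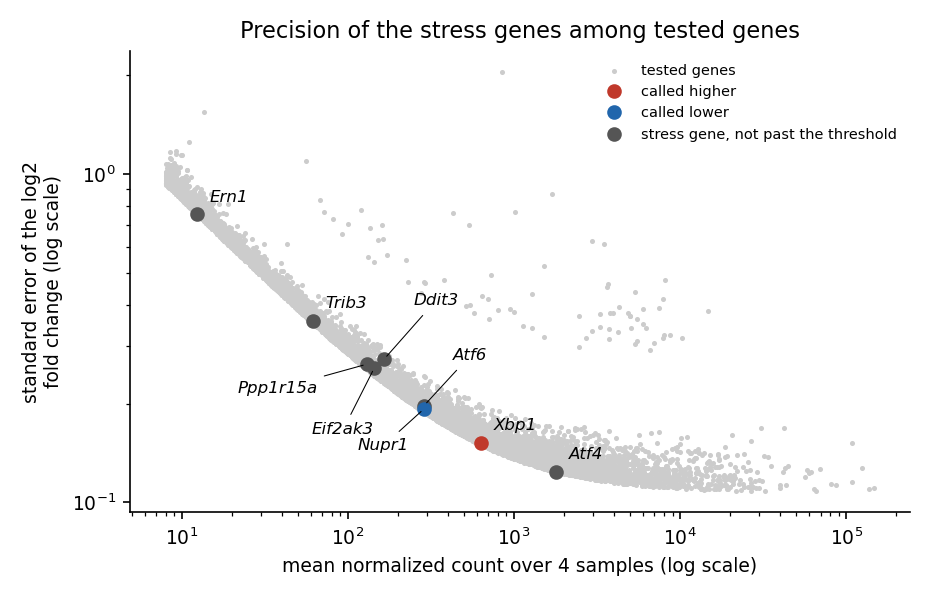
Standard error of the log2 fold change against the mean normalized count over 4 samples, both on log scales, for the 12069 tested genes in the authors' deposited table (grey) and the 9 stress-response genes (coloured by call). The stress genes lie in the band of other genes of their abundance, from Ern1 (0.75 at a mean of 12.4) to Atf4 (0.12 at 1786). DESeq2's estimate of spread partly fixes this closeness.

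Genes downstream of the stress factors were followed in lists. These were chosen with earlier results of these data known, so their counts and medians are descriptions and not tests. Of 16 genes known as ATF6 targets, Xbp1 among them, 5 were higher (31.3%, beside 0.456% of all genes tested), 0 lower and 11 not called. An unadjusted p under 0.05 was seen for 11 of the 16, beside 13.3% of all genes tested. The median log2 fold change was 0.43 beside 0.00 for all tested genes, with 14 of 16 above 0, where 50.6% of all tested genes were above 0. Besides Xbp1 the higher genes were Pdia6, a protein disulfide isomerase gene (0.72 ± 0.15 SE), and Hsp90b1, the gene of the ER chaperone endoplasmin (0.49 ± 0.12). Manf, an ER stress-induced secreted factor gene, was higher too (0.46 ± 0.12; adjusted p = 0.0149). So was Calr, the gene of the calcium-binding chaperone calreticulin (0.51 ± 0.15), close to the threshold at an adjusted p of 0.0426 (all in the authors' deposited table). Without Xbp1, 4 of 15 were higher, 10 had an unadjusted p under 0.05 and the median log2 fold change was 0.42. Centring the fold changes on ribosomal protein genes left 3 of the 16 called higher. Atf6 itself, at a log2 fold change of 0.09 ± 0.20, did not pass, nor did Hspa5, the gene of the chaperone BiP that holds the sensors inactive (0.32 ± 0.12 SE, adjusted p = 0.145, authors' deposited table).

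Genes listed here as targets of XBP1 were not called higher beside Xbp1. Of 25 in the table, 24 were tested, at a median log2 fold change of 0.07 with 16 of 24 above 0. Of these 24, 0 were higher, 1 was lower and 23 were not called, beside 0.456% higher and 1.52% lower over all genes tested. At those shares 24 genes would hold few called ones, so 0 and 1 are small counts to read. An unadjusted p under 0.05 was seen for 4 of the 24, a share of 16.7% beside 13.3% of all genes tested. The lower gene was Dnajb9, an ER co-chaperone, at 1.48 times (95% interval 1.24 to 1.75) and an adjusted p of 0.00193 in the authors' deposited table, with a mean normalized count of 2009. The other 3 were Pdia4 (0.49 ± 0.17 SE) and Sdf2l1 (0.44 ± 0.22), above 0, and Hyou1 (-0.92 ± 0.43), below 0, none of them called in the authors' deposited table. The 2 lists share 7 genes, of which none was called (3 had an unadjusted p under 0.05). In the 18 of the XBP1 list that are not in the other, 17 tested, the median log2 fold change was 0.07. In the 9 of the ATF6 list that are not in the other, Xbp1 itself among them, it was 0.49. The list in which a gene stands was a choice, and a gene of 1 list may also be a target of the other factor. These medians and the counts called in each list depend on that choice.

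Targets of ATF4 and CHOP were not called in either direction. Of 32 in the table, 28 were tested. Of these 0 were called, beside 1.98% of all genes tested, a share at which 28 genes would hold few. With an unadjusted p under 0.05 (DESeq2's Wald test of the authors) there were 3, a share of 10.7% beside 13.3% of all genes tested. The median log2 fold change was 0.10, with 19 of 28 above 0. Bbc3, the pro-apoptotic PUMA gene, had the smallest p (1.49 ± 0.48 SE, adjusted p = 0.0701, mean normalized count 39.9, in the authors' deposited table). Atf5, another stress transcription factor gene, stood at 2.90 ± 1.26 at a mean of 6.36 without an adjusted p. Chac1, a glutathione-degrading enzyme gene and a common readout of this branch, had a log2 value of 1.27 ± 0.56 in the authors' deposited table, at a mean of 24.7 and an adjusted p of 0.278. The other tested gene at an unadjusted p under 0.05, Vegfa, an angiogenic growth factor gene, lay on the other side of 0 at -1.38 ± 0.66 (SE), with a mean of 17.5 and an adjusted p of 0.335 in the authors' deposited table. Asns, the asparagine synthetase gene, stood at 0.05 ± 0.18.

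Genes that act around the sensors were not called either. Over all genes tested 1.98% were called, a share at which lists of these sizes would hold few, so a count of 0 says little. For the kinases, phosphatase subunits, eIF2 and eIF2B subunits of the eIF2α pathway, 19 were tested, 0 were called and 3 had an unadjusted p under 0.05, at a median log2 fold change of -0.13 with 14 of 19 below 0. The share at an unadjusted p under 0.05 was 15.8%, beside 13.3% of all genes tested. The lowest p-values were those of Eif2b1 (-0.39 ± 0.14 SE; adjusted p = 0.139) and Eif2s1, which encodes eIF2α (-0.32 ± 0.12; adjusted p = 0.193), in the authors' deposited table. Centring on ribosomal protein genes called 2 of these genes lower. For the machinery that activates IRE1 and ATF6, 23 were tested with 0 called, 3 at an unadjusted p under 0.05 (13.0%) and a median of 0.00 with 10 of 23 above 0, where Atf6b, the ATF6 paralogue, had, in the authors' deposited table, a log2 fold change of 0.88 ± 0.35 and an adjusted p of 0.206. Besides Hspa5 and Atf6b the gene at an unadjusted p under 0.05 was Creb3l2, below 0 at -1.72 ± 0.72 (SE) and a mean of 15.3 in the authors' deposited table. Among messages that IRE1α is known to cut outside splicing, 4 were tested, 0 were called and 0 had an unadjusted p under 0.05, with Hgsnat at -0.60 ± 0.35 (SE) in the authors' deposited table and Galnt10, which had no adjusted p, at -0.46 ± 1.12. Dimer partners and relatives of the transcription factors, with the Tribbles paralogues, gave 27 tested genes, 0 called and 3 at an unadjusted p under 0.05 (11.1%), with a median of 0.12 and 16 of 27 above 0. These 3 were Creb1 (-0.50 ± 0.19 SE) and Mafk (-0.62 ± 0.31), below 0, and Jund (0.48 ± 0.24), above 0, in the authors' deposited table. The mitochondrial stress list gave 14 tested, 0 called and 0 at an unadjusted p under 0.05 (median 0.03, 8 of 14 above 0), with Dele1, which relays mitochondrial stress to the eIF2α pathway, at 0.87 ± 0.60 and a mean normalized count of 20.6 in the authors' deposited table.

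**Figure D4:**
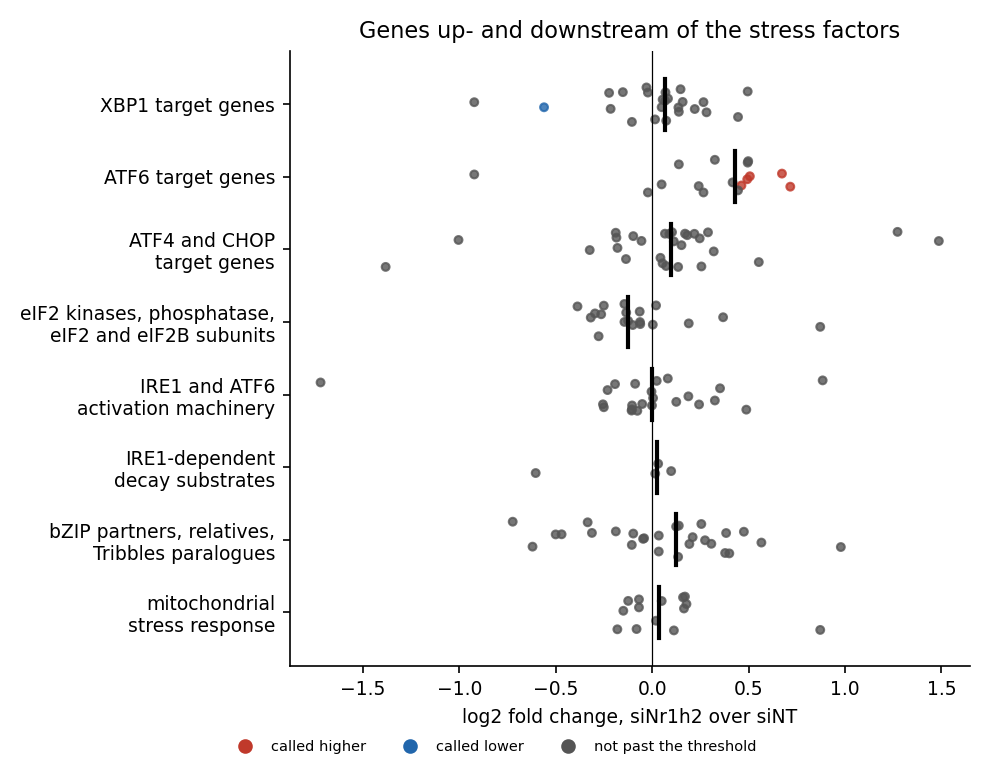
Log2 fold change, siNr1h2 over siNT, of each tested gene in the 8 lists around the stress factors (points, coloured by call; vertical position within a list is arbitrary) in the authors' deposited table, with a bar at the median of each list. The ATF6 target list has its median at 0.43 and 5 called genes, Xbp1 included, and the XBP1 target list has its median at 0.07 and 1 called gene, Dnajb9.

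Markers of other cells were looked for beside these values. All 12 preimplantation embryo markers were in the table. The 1 called was Krt8, a trophectoderm keratin gene, which was lower at a log2 fold change of -0.50 ± 0.14 (SE) with an adjusted p of 0.0211 in the authors' deposited table. Its partner keratin gene Krt18 stood at -0.27 ± 0.13 and Dppa3 at -0.26 ± 0.11, and Pou5f1 stood at 0.43 ± 0.15, each with an unadjusted p under 0.05 but not called (authors' deposited table). Of 12 cumulus and granulosa cell markers 4 were in it, with a summed mean normalized count of 99.6 (derived sums of 91.7 in siNT and 108 in siNr1h2). Of 7 blood and immune cell markers 3 were in it, with derived sums of 331 and 413, mostly from Cd74 (mean 328). The 7 sperm markers were not analysed here. None of the markers of other cells in the table was called, although Amhr2, a granulosa cell receptor gene (0.80 ± 0.35 SE), and Cd74 (0.42 ± 0.19) had an unadjusted p under 0.05 in the authors' deposited table. The part of Krt8 and of these markers in the values of Xbp1 and Nupr1 was not tested. In whole embryos fewer cells of a type and less RNA per cell cannot be told apart.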

How the data were processed

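RNA of 4 mouse morula samples, 2 per group, was profiled. Per the labels' protocols, full-length cDNA was made with SMART-Seq v4 and libraries with Nextera XT. Build mm9 and the tools DESeq2, edgeR, STAR, Cufflinks 2.2.1, HTSeq 0.12.4 and RSEM are listed, per the submitters' processing notes, without roles or parameters, and the sources used here give no gene annotation. The 1 deposited table has the columns of a DESeq2 result, per the file headers: the mean over samples of counts scaled by size factors (a signal value), a log2 fold change with its standard error, a Wald score, and a p-value before and after adjustment, all computed by the authors. The authors gave an adjusted p for 12069 genes. The other 1589, with means up to 8.00, were not called. No value per sample is held, so no test was refitted, and 0 columns were left out.

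Intervals are 1.96 standard errors. Derived group means split the mean over 4 samples by the fold change and assume equal weight per group. The smallest callable change uses the largest called p (0.000974). Lists are described by counts and medians. Members and the 8 lists were chosen with earlier results of these data known. Named list genes are the called ones or, with none called, the 2 with the smallest p. Pdia4, Sdf2l1, Hyou1, Chac1, Vegfa, Asns, Creb3l2, Mafk and Jund fall outside this rule and were chosen after their values were seen. Lengths came from GENCODE M21 (GRCm38), by symbol, so no mm9 coordinates are given. Calculations were run with scikit-learn 1.9.0, scipy 1.17.1 and pandas 2.3.3 under Python 3.11.15. The functions for adjustment were checked on simulated shifts and on the authors' values, and that for trend removal on simulated data. Centring, the subtraction of a constant, was not checked. Alternatives covered the threshold, low-count filter, adjustment, centring, reference distribution, minimum fold and a trend with length and GC content.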

Additional observations from a re-analysis of the deposited data

How the results depend on the processing

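Xbp1 stayed called in 9 of 11 alternatives and Nupr1 in 8 of 11. Only centring and removal of the trend in length and GC content alter the fold change, and under these both kept their main direction. The other alternatives leave the fold change as it is, so they could not show a change of direction. The outcomes at other thresholds and at the 1.5-fold minimum follow directly from the main values. Under Holm adjustment both were lost, leaving 0 stress genes higher and 0 lower (Xbp1 0.67, adjusted p = 0.113; Nupr1 -0.69, adjusted p = 1.00). With a t distribution with 2 degrees of freedom both were lost too, at an adjusted p of 0.948. The threshold over all genes was out of reach under it, so this says nothing about stability. At a threshold of 0.01 Nupr1 (-0.69) was lost, leaving 0 stress genes lower. The other 7 genes were called under none of the alternatives, but Atf6 took -0.0151 when centred on ribosomal protein genes and Ddit3 0.0246 when centred on genes with a mean of at least 500 and 0.0630 without the trend in length and GC content. The causes of these shifts beyond the constants subtracted were not tested.

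Over all genes, 55 were called higher and 184 lower. A threshold of 0.01 gave 17 and 92, Holm adjustment 1 and 48, the t distribution 0 and 0, and centring on ribosomal protein genes, which subtracts 0.11 from every log2 fold change, 36 and 442. Centring on genes with a mean of at least 500 gave 82 and 142. A threshold of 0.1 gave 125 higher. Of ATF6 targets, 3 were higher at 0.01, 1 under Holm, 3 centred on ribosomal protein genes, 0 under the t distribution and 2 with a minimum of 1.5 times. The 1 lower XBP1 target was lost, leaving 0, under Holm, the t distribution and the 1.5-fold minimum. A threshold of 0.1 called 1 ATF4 and CHOP target higher. Centred on ribosomal protein genes, 2 eIF2 pathway genes and 1 bZIP relative were lower.

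No paired analysis was possible because the table holds no values per sample, and leaving out replicates and a refit with edgeR or DESeq2 were not run either. The table gives no depth per sample. Means under about 50, as for Ern1, limit the calls.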
